A study of Mus musculus with 8 samples.

Results

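MCT is a mouse line of renal tubular epithelial cells, and its response to transforming growth factor β1 (TGF-β1) together with epidermal growth factor (EGF) was measured on 2 arrays, which were taken by their titles from the 8 arrays of the series. One array held stimulated MCT cells and the other resting MCT cells. Stimulated cells received recombinant human TGF-β1 and EGF at 3 ng/mL each for 24 h, and resting cells received neither. All cells, resting ones included, had been seeded in medium with serum and then kept for 24 h in serum-free medium with transferrin and insulin. The other arrays gave the same pair of conditions for mProx, a proximal tubular line, and for the mammary gland lines NMuMG and EpH4, of which EpH4 is labelled as resistant to epithelial-mesenchymal transition (EMT). The labels name the stimulated cells as induced to EMT, and they do not say how many cultures lie behind an array. The comparison addresses which genes of a kidney tubular line respond to an EMT-inducing pair of factors, and which of these responses were not seen in the other 3 lines.

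TGF-β1 binds paired receptor kinases that phosphorylate SMAD proteins, which enter the nucleus and switch on genes of matrix, cytoskeleton and their own feedback. EGF acts through its receptor and the RAS-ERK kinase cascade, whose early targets are transcription factors of the FOS, JUN and ETS families and phosphatases that shut ERK off again. In EMT, epithelial cells loosen their junctions and take up a fibroblast-like, matrix-making state. Tubular cells that take up part of this state, and that secrete matrix and growth factors, have been studied widely in kidney fibrosis.

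Levels below are log2 values of the array intensity after an offset and quantile normalization, and a change is the stimulated minus the resting level, so that a change of 1.00 is 2-fold. Genes were tested where their mean over the 8 arrays was at least 5.27, and a level under that limit is called dim. A gene found in MCT cells alone can fall under this mean, so such genes are given beside the lists they belong to. The offset understates the changes of dim genes, so a change against a dim array is not exact. Each side of the MCT comparison is 1 array, so no MCT change has a replicate error, and agreement between probe sets of a gene is the only check within the line. In RNA from a whole culture, fewer expressing cells and less RNA per cell cannot be told apart. The deposited median signal was 41.5 on the stimulated and 49.6 on the resting MCT array, within the 41.5 to 59.7 of all 8 arrays, and the Gapdh and Actb control ratios of 3' to 5' end covered narrow ranges of 0.776 to 0.823 and 1.11 to 1.20.

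The kidney label was held against marker genes. Pax8, a renal transcription factor, was at 8.99 in stimulated and 9.66 in resting MCT cells, and Cdh16, the kidney-specific cadherin, at 9.48 and 10.80. Proximal tubule genes were low on both arrays. The endocytic receptor gene Cubn was at 7.26 in stimulated and 6.96 in resting cells, its partner Lrp2 at 6.40 and 5.99, the glucose carrier gene Slc5a2 at 6.28 and 6.24, and the water channel gene Aqp1 was dim at 5.08 and 5.07. Of 61 proximal tubule genes in the table, 17 were dim on both arrays. Markers of other cells were dim on both MCT arrays in 11 of 21 cases for the distal nephron, 8 of 15 for endothelium, 7 of 15 for fibroblasts, 4 of 14 for leukocytes and 2 of 11 for podocytes. The podocyte list had the highest mean level of these, 7.14 in stimulated and 7.50 in resting cells. The podocyte and leukocyte lists had higher mean levels than the proximal tubule list on both arrays. The distal nephron, endothelial and fibroblast lists had lower ones. By mean level these lists thus did not set the line apart from other cell types. Among the markers dim on both arrays were Umod of the distal nephron, the endothelial gene Pecam1, the leukocyte gene Ptprc and the fibroblast gene Thy1. Most leukocyte and podocyte markers were not dim on both. Cdh1, encoding E-cadherin, was dim at 4.47 in stimulated and 3.87 in resting cells, and Epcam was at 7.08 and 6.67. The mesenchymal genes Vim, at 13.36 in stimulated and 13.26 in resting cells, and Cdh2, at 11.24 and 10.86, were high in both. Of 27 tested kidney lineage factors, Pax8 among them, 22 were above the dim limit on both MCT arrays and 3 were dim on both. Of 10 more under the limit on the mean, 2 had an MCT array above the dim limit. The renal genes Pax8 and Cdh16 were therefore present, while E-cadherin was not measured above the dim range. Levels of these renal genes in the mammary lines were not compared. Vimentin lay near the top of the scale of 13.7 before any stimulation.

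Of 12640 genes tested, 349 (2.76%) were at least 2-fold higher and 345 (2.73%) at least 2-fold lower in stimulated than in resting MCT cells. At 4-fold the counts were 43 higher and 35 lower. The SD of the changes over all genes was 0.50, close to 0.50 in mProx and 0.49 in NMuMG and above 0.35 in EpH4. Among the higher genes 236 had both MCT arrays above the dim limit, 102 had 1 dim array and 11 had 2. Among the lower genes these numbers were 192, 137 and 16. Outside the tested genes, 184 more were at least 2-fold higher and 170 lower with an MCT array above the dim limit, and 9 and 8 of them passed 4-fold. On the values as deposited, with no normalization between arrays, the median change of all genes was -0.25 in place of -0.02, and 228 genes were higher against 602 lower, so that 27.5% of the changed genes were higher in place of 50.3%. A list median that lies within this shift of 0 can take the other sign with the scaling, so list medians are read against the median of all genes.

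**Figure D1:**
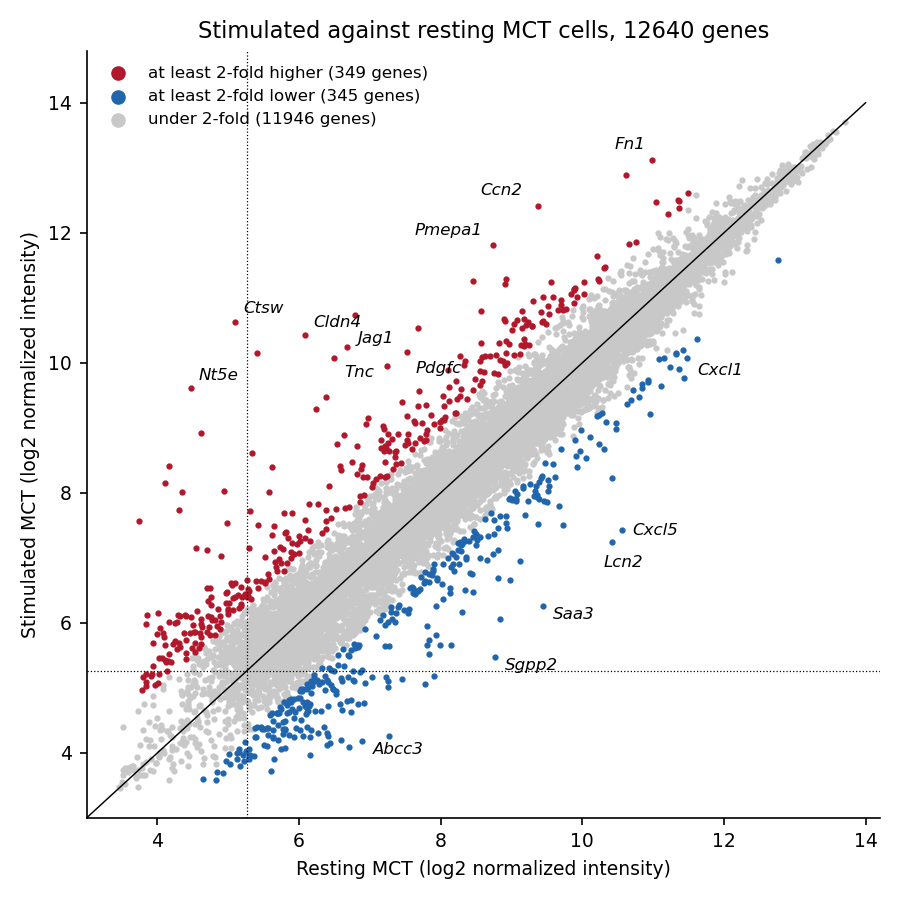
Log2 normalized intensity of each of 12640 genes in stimulated MCT cells (vertical axis) against resting MCT cells (horizontal axis), 1 array each. Red points mark the 349 genes at least 2-fold higher, blue points the 345 at least 2-fold lower, the solid line equal levels, and the dotted lines the dim limit of 5.27. Ctsw and Nt5e lie above the line from dim resting levels, while Fn1, Ccn2 and Pmepa1 lie above it at high levels.

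Probe sets of the same gene read different stretches of a transcript. The 349 higher genes had 236 further probe sets, of which 214 (90.7%) changed in the same direction, and the 345 lower genes had 155, of which 141 (91.0%) did. Over all tested genes the share was 66.3%. Among changed genes with both MCT arrays above the dim limit it was 93.4%, and among those with 1 dim array 70.3% of 37 probe sets. At 4-fold 41 of 42 further probe sets had the same direction. The further probe sets changed less than the one used, by a median ratio of 0.71 for the higher and 0.67 for the lower genes.

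**Figure D2:**
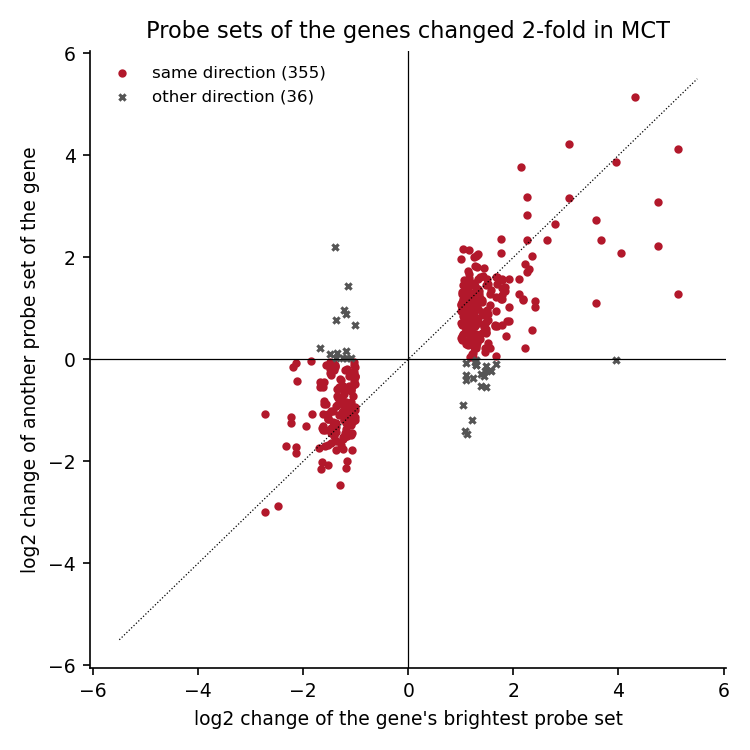
Log2 change in MCT of each further probe set (vertical axis) against that of the probe set used for its gene (horizontal axis), for genes changed at least 2-fold. Red points mark the 355 of 391 probe sets with the same direction, crosses the 36 with the other, and the dotted line equal changes.

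The largest increase among tested genes in MCT was that of Ctsw, a cysteine protease gene known from cytotoxic lymphocytes. Its deposited intensity was 1351 in stimulated and 22.9 in resting cells, and its log2 level was 10.63 and 5.10, a change of 5.54 from a dim resting level. It was also higher in mProx by 3.25, in NMuMG by 2.20 and in EpH4 by 2.00. Of 14 leukocyte markers on the arrays, 4 were dim on both MCT arrays, Ptprc among them. The deposited intensities of the 14 summed to 1146 in stimulated and 1144 in resting cells. These sums are not normalized, and the stimulated array had the lower median signal, 41.5 against 49.6. Nt5e, encoding the ectonucleotidase CD73 that makes adenosine, was at 9.61 in stimulated and 4.47 in resting MCT cells, a change of 5.14. Its changes were -0.42 in mProx, 4.44 in NMuMG and 0.29 in EpH4, and both lines that changed little had high resting levels of 9.36 and 10.60. Resting Nt5e was thus dim only in MCT and NMuMG, the lines in which it was higher after stimulation, and both further probe sets were higher in MCT, by 1.28 and 4.13.

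Ccbe1, a secreted matrix protein of lymphatic growth, was at 10.15 in stimulated and 5.40 in resting MCT cells. Cldn4, a tight junction claudin, was at 10.42 and 6.09, a change of 4.33 against 0.25 in mProx, 1.75 in NMuMG and 0.52 in EpH4. Has2, which makes hyaluronan, was at 8.92 and a dim 4.61, and its further probe set changed by 5.15. All 3 were above the dim limit after stimulation, and Ccbe1 and Cldn4 were so on both arrays. Ano1, a calcium-gated chloride channel, was higher in MCT by 3.67 and Megf10, an engulfment receptor, by 3.82, both from dim resting levels. Jag1, a ligand of Notch receptors, was at 10.24 in stimulated and 6.68 in resting MCT cells, and its change of 3.57 stood against -0.14 in mProx, 0.81 in NMuMG and 1.08 in EpH4. Tnc, the matrix glycoprotein tenascin C, was at 10.07 and 6.49, a change of 3.59 against -0.88 in mProx, 1.59 in NMuMG and 1.01 in EpH4. Resting Tnc and Jag1 were lower in MCT than in any other line.

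The other members of the 15 largest increases among tested genes were Acsbg1, an acyl-CoA synthetase gene, at 4.25, Il18rap, a chain of the interleukin-18 receptor, at 4.04, and Tnnt2, cardiac troponin T, at 3.95. Ctsf, a lysosomal cathepsin gene, was higher by 3.43 in MCT, with 0.20 in mProx, -0.59 in NMuMG and -0.43 in EpH4, so its direction differed between MCT and both mammary lines. Lce1h, a cornified envelope gene, was higher by 3.27 and Ctla2b, a protease inhibitor gene, by 3.10. The further probe sets of Tnnt2 did not agree, with changes of -0.01 and 3.87 in MCT. Of these 15 genes, Ctsw, Acsbg1 and Tnnt2 were at least 2-fold higher in all 4 lines. Over all tested genes 8 were so, the other five being Ctla2a, Lamb3, Flacc1, Adam12 and Etv5, and 2 genes, Sult1c2 and Cys1, were at least 2-fold lower in all 4. Ctla2a, Flacc1 and Cys1 were named after their values were seen. Of the genes under the limit on the mean, Csf2, the cytokine GM-CSF, had an increase that ranks with these. It was at 7.67 in stimulated and a dim 3.85 in resting MCT cells, a change of 3.82, and was dim on all arrays of the other lines, where it changed by -0.05, -0.14 and -0.16 in mProx, NMuMG and EpH4. It was named after its values were seen.

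Sgpp2, which had the largest decrease among tested genes and encodes a phosphatase of sphingosine phosphate, was at 5.47 in stimulated and 8.76 in resting MCT cells. Its change of -3.29 stood against -1.47 in mProx, 0.84 in NMuMG and -0.50 in EpH4. Sgpp2 was dim on both arrays of mProx and of NMuMG, so neither the size nor the direction there is exact. Lcn2, the siderophore-binding protein used as a marker of tubular injury, was at 7.24 and 10.42. Saa3, an acute-phase serum amyloid, was at 6.25 and 9.44, and Cxcl5, a chemokine for neutrophils, at 7.42 and 10.56. All 4 genes were above the dim limit on both MCT arrays. The others were ccdc198 at -3.02, the carbonyl reductase gene Cbr2 at -2.77, the sulfotransferase gene Sult1c2 and the BMP antagonist gene Chrdl1 at -2.72 each, and the exporter gene Abcc3 at -2.71. They ended with the retinal reductase gene Dhrs3 at -2.61, the neprilysin gene Mme at -2.49, the alarmin gene Il33 at -2.39, and Ptgds, Wnk4 and Cyp4b1 at -2.32 each. Of the 15 largest decreases, ccdc198, Sult1c2, Chrdl1, Abcc3, Dhrs3 and Il33 were dim in stimulated MCT cells, so the sizes of these changes are not exact.

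**Figure D3:**
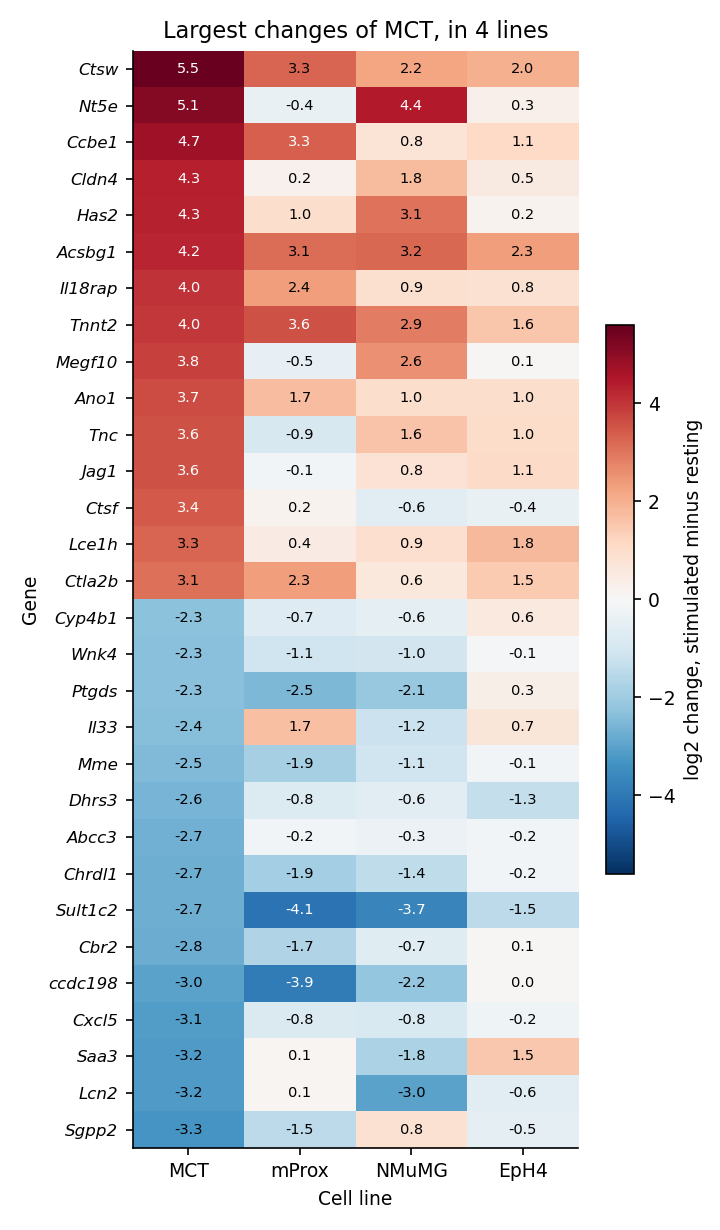
Log2 change (stimulated minus resting, colour and printed value) of the 15 tested genes with the largest increase and the 15 with the largest decrease in MCT, in MCT (left column), mProx, NMuMG and EpH4. Nt5e, Tnc and Jag1 are positive in MCT and below 0 in mProx, and Sult1c2 is negative in all 4 lines.

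TGF-β/SMAD targets had the highest median change in MCT of the 41 lists. Of 35 tested, 16 were at least 2-fold higher in MCT and 1 was lower, and 14 of the 16 had both arrays above the dim limit. The median change was 0.82 in MCT, 0.33 in mProx, 0.66 in NMuMG and 0.42 in EpH4, against -0.02 in MCT over all tested genes. In 18 of the 35 the change in MCT exceeded that in each other line, against 21.5% of all genes. Pmepa1, a membrane protein that dampens SMAD signalling, was at 11.81 in stimulated and 8.74 in resting MCT cells, a change of 3.07 against 1.22 in mProx, 1.14 in NMuMG and 0.89 in EpH4, and its further probe sets changed by 3.17 and 4.22. Ccn2, connective tissue growth factor, was at 12.42 and 9.38, a change of 3.04 against 1.28, 0.61 and 1.62 in those lines. Fn1, fibronectin, was at 13.12 and 10.98, a change of 2.14 against 1.43, 0.11 and 0.17. Resting Fn1 was lowest in MCT. Both mammary lines held it close to the scale's upper end before stimulation, with 13.26 in NMuMG and 12.79 in EpH4.

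Within this list Hmga2, a chromatin protein, was at 12.88 in stimulated and 10.62 in resting MCT cells, and Ltbp1, which holds latent TGF-β in the matrix, at 9.56 and 7.69. Skil, a corepressor of SMADs, was higher by 1.37. Hmga2 and Skil had 3 and 1 further probe sets, all higher, at 1.71 to 2.83 and 1.19. Smad7, the inhibitory SMAD, was higher in MCT by 0.60 on the probe set used and by 1.58 on the further one, and the probe set used changed by 0.01 in mProx, 0.79 in NMuMG and 0.95 in EpH4. Lox, a collagen crosslinking enzyme, was the single lower member at -1.16, but it was dim in stimulated cells and its further probe set changed by 1.44.

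ERK feedback and immediate early genes had a median change of 0.66 in MCT, against 0.25 in mProx, 0.25 in NMuMG and 0.18 in EpH4. Of 36 tested, all above the dim limit on both MCT arrays, 11 were at least 2-fold higher and 1 was lower. The ERK phosphatase gene Dusp5 was at 8.74 in stimulated and 6.53 in resting MCT cells, and Dusp6 at 10.10 and 8.63. Dusp4 was higher by 1.05 and the stress kinase phosphatase gene Dusp8 was the lower member, at -1.03. For these ERK phosphatases mProx had the larger changes, of 2.57 for Dusp5, 2.44 for Dusp6 and 1.27 for Dusp4. The ETS factor genes Etv5 and Etv4 were higher by 1.27 and 0.90 in MCT, against 2.91 and 3.03 in mProx.

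Some immediate early genes had the opposite order. Junb, an AP-1 subunit, was at 10.31 in stimulated and 8.57 in resting MCT cells, a change of 1.73 against 0.21 in mProx, 0.79 in NMuMG and 0.66 in EpH4. Ier2, an immediate early gene, was higher by 1.20 in MCT and by 0.25, 0.27 and 0.31 in those lines. Klf6, a zinc finger factor, was higher by 1.10, against 0.03, 0.14 and 0.29, and its 4 further probe sets changed by 0.72 to 1.04. Egr1, a zinc finger factor of the serum response, was at 9.89 and 9.05, a change of 0.83, with -1.49 in mProx, -1.79 in NMuMG and 0.14 in EpH4. Myc was higher by 1.57 in MCT and 1.72 in mProx and changed by 0.21 and -0.07 in the mammary lines, and the AP-1 subunit gene Fosl1 was higher by 0.94 in MCT and 2.30 in mProx. Between the kidney lines Dusp4, Dusp5, Dusp6, Etv4, Etv5 and Fosl1 thus had larger changes in mProx, and Junb, Ier2, Klf6 and Egr1 in MCT.

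Promoter windows are shown for 3 genes that were higher in MCT and hold a motif of factors of this pathway, AP-1 or, for serum response factor, the CArG box. They are RefSeq windows of build GRCm38.p6, running from 250 bases before to 50 after the gene start, 5' to 3', with motif matches on either strand in capitals. The AP-1 motif was searched as TGANTCA. It is in 7.81% of all 32851 windows. Counted by gene, with a match in any of its windows, it is in 6.64% of tested genes. It is in 31 of the 258 higher and 28 of the 266 lower genes with a window. The CArG box, which is its own reverse complement, is in 1.63% of all windows. By gene, it is in 1.57% of tested genes, and in 7 (2.71%) of the higher and 3 (1.13%) of the lower genes. A match is a stretch of letters and shows no binding. The Cldn4 window (chr5:134946885-134947184 on the minus strand) has 2 AP-1 matches, the Mmp10 window (chr9:7502092-7502391 on the plus strand) has 1, and the Pdgfc window (chr3:81036166-81036465 on the plus strand) has 1 CArG match.
Cldn4: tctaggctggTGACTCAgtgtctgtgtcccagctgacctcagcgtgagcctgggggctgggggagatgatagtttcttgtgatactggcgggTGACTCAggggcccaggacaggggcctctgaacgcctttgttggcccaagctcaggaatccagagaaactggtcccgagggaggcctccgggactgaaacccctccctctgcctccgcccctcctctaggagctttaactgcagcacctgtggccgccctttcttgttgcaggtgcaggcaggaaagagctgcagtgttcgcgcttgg
Mmp10: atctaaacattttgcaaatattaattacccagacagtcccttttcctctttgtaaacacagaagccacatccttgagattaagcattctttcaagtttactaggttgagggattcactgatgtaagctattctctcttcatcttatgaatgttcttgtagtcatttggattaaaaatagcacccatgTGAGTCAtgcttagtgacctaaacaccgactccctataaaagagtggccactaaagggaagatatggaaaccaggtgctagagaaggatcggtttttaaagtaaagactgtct
Pdgfc: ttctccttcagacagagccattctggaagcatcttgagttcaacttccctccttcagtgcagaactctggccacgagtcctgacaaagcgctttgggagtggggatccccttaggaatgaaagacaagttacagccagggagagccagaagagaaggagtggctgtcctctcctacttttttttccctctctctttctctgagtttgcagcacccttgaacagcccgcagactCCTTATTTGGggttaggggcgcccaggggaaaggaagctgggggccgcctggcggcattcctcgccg

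Matrix genes were spread unevenly. Of 30 laminins and matrix glycoproteins, 13 were at least 2-fold higher and 1 was lower in MCT, while the median of 0.18 lay close to the 0.19 of NMuMG and under the 0.35 of EpH4. Ccn2, Tnc and Fn1 belong to this list too. Fbln2, the elastic-fibre protein fibulin 2, was at 9.96 in stimulated and 7.24 in resting MCT cells, a change of 2.71 against 1.84 in mProx, 0.37 in NMuMG and 0.55 in EpH4. The laminin chain genes Lamb3 and Lamb1 were higher by 1.84 and 1.20, the matricellular genes Ccn1 and Ccn4 by 1.41 and 1.36, and the proteoglycan gene Vcan by 1.18. Sparc, a collagen-binding matricellular protein, was the lower member, at 10.20 and 11.41. Its change of -1.21 stood against -0.10 in mProx, -0.07 in NMuMG and 0.15 in EpH4, and both further probe sets were lower, at -1.45 and -0.21.

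Collagen genes did not move as a group in MCT. Of 36 collagen chains and collagen enzymes, 3 were at least 2-fold higher and 5 lower, and the median was 0.00. The 3 higher were Col4a4, Col1a1 and Col5a2, at 1.75, 1.13 and 1.08, and Col1a1 was dim on both MCT arrays, at 5.26 and 4.13. The 5 lower were the basement membrane chains Col4a6 and Col4a5 at -1.22 and -1.18, Pcolce, which aids procollagen cleavage, at -1.17, Lox at -1.16 and the prolyl hydroxylase gene P3h2 at -1.13. Matrix proteases and their inhibitors had 7 higher and 1 lower of 32, with a median of 0.25 in MCT, -0.04 in mProx, 0.00 in NMuMG and 0.18 in EpH4. Mmp10, a stromelysin, was at 8.03 in stimulated and a dim 4.93 in resting MCT cells, a change of 3.10 against 2.15, 1.85 and 0.21. Timp1, an inhibitor of these enzymes, was higher by 1.17, Adam12 by 1.33 and Mmp3 by 1.27, and Mmp9, a gelatinase, by 1.55 from a dim level. Adamts5, an aggrecanase, was the lower one at -1.24. Under the limit on the mean lay the macrophage elastase gene Mmp12, at 6.70 in stimulated and a dim 3.76 in resting MCT cells, the collagenase gene Mmp13, at 6.11 and 3.83, and the cathepsin gene Ctsk, lower at 4.29 and 5.75. In the collagen list P4ha3, a prolyl hydroxylase, was higher there by 1.70.

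Junction and mesenchymal genes moved in both directions. Of 42 epithelial junction and keratin genes, 5 were at least 2-fold higher in MCT and 3 lower, and the median was -0.01. Besides Cldn4 the higher ones were Cdh6, a cadherin of the developing nephron, the connexin gene Gja1 at 1.23, the claudin gene Cldn1 at 1.28 and the protease gene St14 at 1.32. Cldn1 was dim on both MCT arrays, with its further probe set at -0.11, and St14 was dim at rest. Cdh6 was at 11.21 in stimulated and 8.90 in resting MCT cells, a change of 2.30 against -1.83 in mProx, -0.14 in NMuMG and 0.58 in EpH4, and its further probe set changed by 1.78. The lower ones were the plakin gene Ppl at -1.87, Cdh16 at -1.32 and the connexin gene Gjb2 at -1.01. Keratins Krt18 and Krt8 were higher by 0.98 and 0.66, under 2-fold, and the further probe sets of Krt8 changed by -0.44 and 1.18. The change of Epcam was 0.41 on 1 probe set and -1.84 on the other.

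Of 19 mesenchymal markers Fn1, Pdgfra, Ncam1, Postn and Col1a1 were at least 2-fold higher, Sparc was lower, and the median was 0.09. Vim changed by 0.10, Cdh2 by 0.38 and Acta2, smooth muscle actin, by -0.20. Among EMT transcription factors, Snai1 and Snai2 were higher by 0.76 and 0.77, Zeb2 by 0.54 and Zeb1 by 0.16, all under 2-fold on the probe sets used. Resting Snai2 was dim, at 5.24, and its further probe set changed by 2.54. The members of that list past 2-fold were Runx1, Sox4 and Sox9, higher by 1.33, 1.15 and 1.05, and Twist2, which was at 8.76 in stimulated and 10.23 in resting MCT cells. Twist2 changed by -1.48 in MCT, -0.27 in mProx, 0.00 in NMuMG and -0.13 in EpH4. Twist2 is also a marker of fibroblasts, of which 15 were listed. Of these, 7 were dim on both MCT arrays. The deposited intensities of all 15, not normalized between arrays, summed to 737 in stimulated and 1599 in resting MCT cells. Twist2 alone made up 355 and 1194 of these sums.

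Growth factors and their receptors had 10 higher and 4 lower members of 55, with a median of -0.02. The platelet-derived growth factor genes Pdgfc and Pdgfa were at 10.17 and 10.67 in stimulated MCT cells, against 7.53 and 8.90 in resting ones. Their changes of 2.64 and 1.77 compare with 0.26 to 0.39 and 0.51 to 0.68 in the other lines. The receptor gene Pdgfra was higher by 1.88, at 5.91 in stimulated and a dim 4.04 in resting cells. Vegfa, an endothelial growth factor, was higher by 1.58 and the growth hormone receptor gene Ghr by 1.84. The lower members were Vegfd at -2.14, the TGF-β ligand gene Tgfb2 at -1.60, Igf1 at -1.23 and Mertk, a receptor for apoptotic cells, at -1.19. The TGF-β receptor gene Tgfbr2 changed by -0.81.

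Among BMP and Id genes, the receptor gene Acvr1 was at 10.80 in stimulated and 8.57 in resting MCT cells, a change of 2.23 against 0.61 in mProx, 0.55 in NMuMG and 0.22 in EpH4, with further probe sets at 0.22 and 1.88. The activin chain genes went apart, with Inhba at 1.37 and Inhbb at -1.38, and Inhbb was dim on both arrays. Bmp4 changed by -1.35. Of the Id genes, which inhibit helix-loop-helix factors, Id2 and Id3 changed by -1.43 and -1.19 in MCT, and Id1 by -0.07. In mProx Id3 changed by -3.24 and in NMuMG Id2 by -2.84. Hes1, a Notch target, was higher by 1.53 in MCT and by 0.57 to 0.65 in the other lines. Of 17 tested Notch pathway genes 2 were at least 2-fold higher in MCT and 0 lower, with a median of 0.02. Under the limit on the mean, Hes5, Hey1, Hey2 and Mfng changed by -0.43, -0.17, -0.15 and -1.34 in MCT.

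Inflammatory genes moved in both directions in stimulated MCT cells. Of 43 tested NF-kB targets, chemokines and cytokines, 3 were at least 2-fold higher and 8 lower, with a median of -0.24 in MCT, 0.09 in mProx, -0.27 in NMuMG and 0.23 in EpH4. Besides Lcn2, Saa3, Cxcl5 and Il33, the lower ones were chemokine genes and Bcl3. Ccl20, which attracts lymphocytes and dendritic cells, was at 6.68 in stimulated and 8.81 in resting MCT cells, Cxcl1, which attracts neutrophils, at 10.07 and 11.48, and Ccl2, which attracts monocytes, at 8.64 and 9.97. All of these were above the dim limit in resting cells, and Il33 alone was dim in stimulated ones. Bcl3, a nuclear partner of NF-kB, changed by -1.10.

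In the other lines these genes behaved differently. In NMuMG Lcn2 changed by -2.99, Saa3 by -1.76 and Ccl20 by -4.57. In mProx, where Lcn2 and Ccl20 were dim on both arrays, the changes were 0.11, 0.12 and 0.09, and Cxcl1, at 8.15 on both arrays, changed by -0.01. Cxcl1 changed by 0.00 in EpH4 and Saa3 by 1.50. The 3 higher genes of the list were the NF-kB inhibitor gene Tnfaip3 at 1.45, the prostaglandin synthase gene Ptgs2 at 1.34 and the cytokine gene Lif at 1.26. Of 5 further members that were under the limit on the mean but above the dim limit on an MCT array, the colony-stimulating factor genes Csf2 and Csf3 were at least 2-fold higher and 0 were lower. Csf3 was at 6.28 in stimulated and dim in resting MCT cells, a change of 1.48. In the complement and acute phase list, 5 of 18 were lower and 0 higher. They were Lcn2, Saa3, the complement protease genes C1s1 at -2.19 and C1ra at -1.66, and Lbp, which binds lipopolysaccharide, at -1.30. For the last 3 the changes in mProx and NMuMG ran from -3.04 to -1.39.

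The promoters of 4 of these lower genes are shown, from the same RefSeq set and in the same way. C/EBP factors and NF-kB are known regulators of acute-phase and chemokine genes. The C/EBP motif was searched as TTGCNNAA and is in 10.8% of all windows. By gene, with a match in any of its windows, it is in 9.74% of tested genes. It is in 45 of 266 (16.9%) of the lower and 34 of 258 (13.2%) of the higher genes. The NF-kB consensus is in 8.46% of all windows. By gene, it is in 12.3% of tested genes, and in 29 (10.9%) of the lower and 41 (15.9%) of the higher genes. The shares by gene are not on the same scale as those of windows. Lcn2 (chr2:32387690-32387989 on the minus strand) and Saa3 (chr7:46715627-46715926 on the minus strand) hold 1 C/EBP match each. Cxcl1 (chr5:90890995-90891294 on the plus strand) holds 2 overlapping NF-kB matches, 1 on each strand, and Ccl20 (chr1:83116516-83116815 on the plus strand) holds 1.
Lcn2: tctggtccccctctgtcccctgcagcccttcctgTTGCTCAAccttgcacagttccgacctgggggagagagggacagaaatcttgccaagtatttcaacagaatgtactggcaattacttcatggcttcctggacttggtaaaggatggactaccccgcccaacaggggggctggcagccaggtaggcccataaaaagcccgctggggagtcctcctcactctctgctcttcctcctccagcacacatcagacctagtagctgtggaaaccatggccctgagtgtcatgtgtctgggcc
Saa3: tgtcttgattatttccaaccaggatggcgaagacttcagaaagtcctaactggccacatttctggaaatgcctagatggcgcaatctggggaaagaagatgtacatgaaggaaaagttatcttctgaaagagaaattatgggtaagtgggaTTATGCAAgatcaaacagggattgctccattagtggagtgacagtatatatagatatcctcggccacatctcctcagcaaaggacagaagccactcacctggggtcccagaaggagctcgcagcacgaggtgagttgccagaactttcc
Cxcl1: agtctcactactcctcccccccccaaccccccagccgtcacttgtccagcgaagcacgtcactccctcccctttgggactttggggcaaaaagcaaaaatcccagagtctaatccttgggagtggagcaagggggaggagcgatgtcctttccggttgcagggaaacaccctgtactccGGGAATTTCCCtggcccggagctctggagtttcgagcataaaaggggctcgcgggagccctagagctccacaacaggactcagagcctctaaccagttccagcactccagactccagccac
Ccl20: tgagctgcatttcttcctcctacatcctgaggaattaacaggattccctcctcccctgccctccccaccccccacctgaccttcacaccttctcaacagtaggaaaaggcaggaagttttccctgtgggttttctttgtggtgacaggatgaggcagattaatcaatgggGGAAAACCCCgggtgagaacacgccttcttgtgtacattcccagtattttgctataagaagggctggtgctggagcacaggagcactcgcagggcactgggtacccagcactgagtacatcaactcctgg

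Interferon-stimulated genes had the lowest median change in MCT of the 41 lists, at -0.54, against -0.07 in mProx, -0.32 in NMuMG and 0.05 in EpH4. Of 44 tested, 36 were below 0, 5 were at least 2-fold lower and 0 higher. In 25 of the 44 the change in MCT was below that in each other line, against 27.0% of all genes. The 5 were Samd9l, at 9.08 in stimulated and 10.48 in resting MCT cells, Xaf1 at 8.10 and 9.35, the RNA sensor gene Ddx58 at 8.26 and 9.43, the transcription factor gene Irf7 at 7.07 and 8.18, and Cmpk2 at a dim 5.09 and 6.32. Ddx58 changed by -1.16 in MCT and by -0.03, -0.25 and -0.29 in mProx, NMuMG and EpH4, and its further probe sets changed by -1.20 and -1.05. Ifit3 had the opposite order, with -0.86 in MCT, -3.31 in mProx, -1.77 in NMuMG and -1.45 in EpH4. Of the untested members with a bright MCT array, Oas3 and Ifi27l2a were lower, at -2.05 and -1.44. Antigen presentation genes had a median of -0.28, with 0 of 18 past 2-fold, while H2-Ab1, under the limit on the mean, was higher by 1.89 at 5.90 and a dim 4.02.

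**Figure D4:**
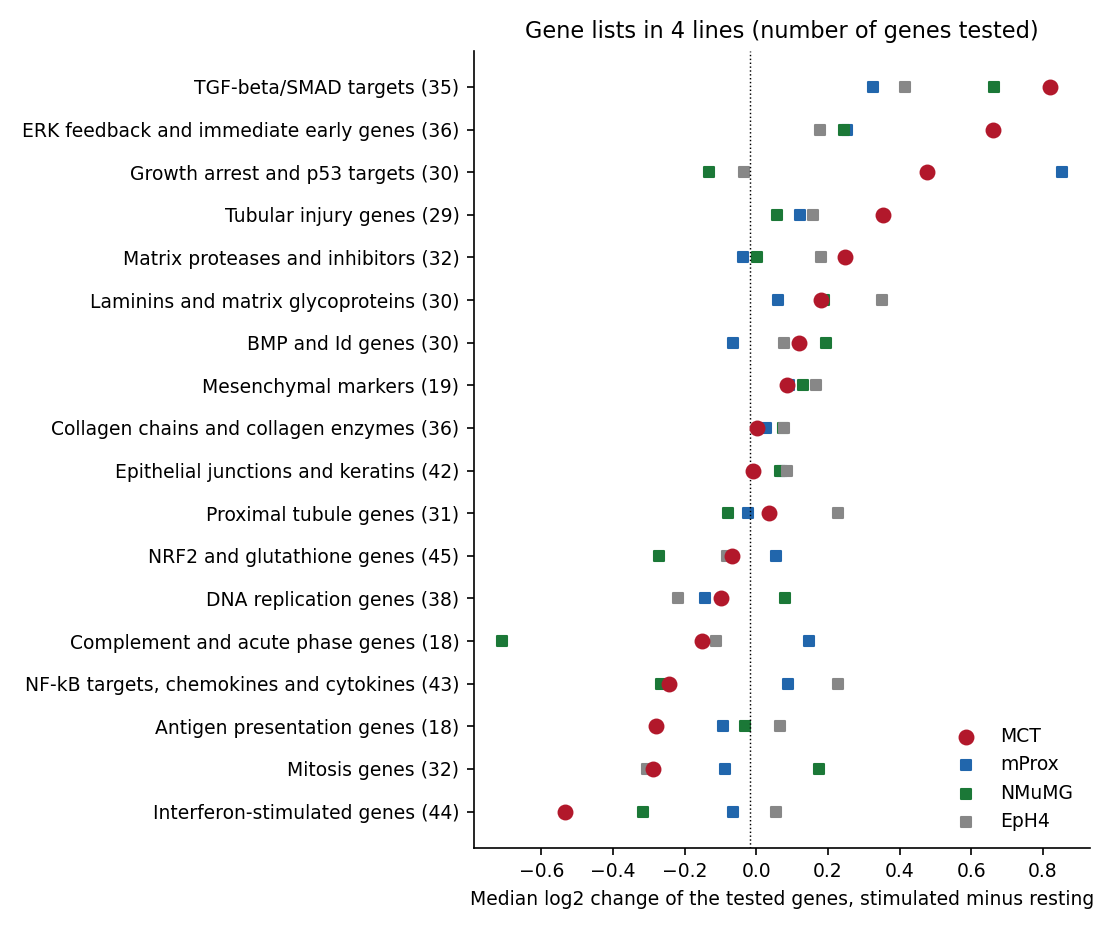
Median log2 change (stimulated minus resting) of the tested genes of 18 gene lists in MCT (red circles), mProx, NMuMG and EpH4 (squares), with the number of genes tested in brackets. The dotted line is the MCT median of all genes, -0.02. MCT lies highest for TGF-β/SMAD targets at 0.82 and ERK feedback genes at 0.66, and lowest for interferon-stimulated genes at -0.54.

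Genes of detoxification were lower where they moved. Of 45 NRF2 and glutathione genes, 7 were at least 2-fold lower in MCT and 0 higher, with a median of -0.07. Besides Sult1c2 and Abcc3 they were the glutathione transferase genes Gstm1 at -1.62, Gsta4 at -1.13, Mgst1 at -1.12, Gstm2 at -1.10 and Gstt1 at -1.07. Gstm1 was at 8.68 in stimulated and 10.30 in resting MCT cells, and it changed by -1.45 in mProx, -1.81 in NMuMG and 0.04 in EpH4. Mgst1, a membrane-bound transferase, changed by 0.26, -0.29 and 0.14 in those lines and was dim on both mProx arrays. Retinoid genes held Dhrs3, which returns retinal to retinol, at -2.61, and at the other end Cyp26b1, which breaks down retinoic acid, at 1.80 and Rdh10, which makes retinal, at 1.35.

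Of 31 tested proximal tubule genes 4 were at least 2-fold lower and 1 higher, and the median was 0.04. Over the 61 in the table, deposited intensities, not normalized between arrays, summed to 3536 in stimulated and 5508 in resting MCT cells. Mme, a brush border peptidase, was at 5.66 in stimulated and 8.14 in resting MCT cells, and its further probe set changed by -2.87. Cyp4b1 was at 5.52 and 7.83. The phosphate carrier gene Slc17a1 and the peptidase gene Enpep, at -1.82 and -1.07, were dim after stimulation, and the aldo-keto reductase gene Akr1c21, the higher one at 1.85, was dim at rest. Resting Enpep was at 5.47 in MCT and at 11.22 in mProx, where it changed by -4.16. Of the untested proximal genes with a bright MCT array Amn, Pdzk1 and Slc13a3 were at least 2-fold higher and Slc2a2 and Slc34a3 lower. Of 27 kidney lineage factors 2 were higher and 4 lower, with a median of -0.11 in MCT and -0.48 in mProx. The lower ones were the vitamin D receptor gene Vdr at -1.95, the bile acid receptor gene Nr1h4 at -1.56, Eya1 at -1.17 and Maf at -1.12. Irx1 and Irx2, factors of nephron patterning, were higher by 1.74 and 1.00, with -0.21 and -0.75 in mProx. Under the limit on the mean, Osr2 changed by -1.81 and Sall4 by 1.42. Of the ion transport genes, the sodium pump subunit gene Atp1b1 changed by -1.46, the kinase gene Wnk4 by -2.32 and the kinase gene Sgk1 by 1.95.

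Genes listed for tubular injury had 9 higher and 2 lower of 29, with a median of 0.35 in MCT, 0.12 in mProx, 0.06 in NMuMG and 0.16 in EpH4. The higher ones include Ccn2, Ccn1, Myc and Timp1, which are in other lists too, and Clu, the chaperone clusterin, at 7.69 in stimulated and 5.78 in resting MCT cells, a change of 1.91 with 3 further probe sets at 0.75 to 1.57. Hbegf, an EGF receptor ligand, was higher by 1.23 and Plin2, a lipid droplet protein, by 1.12. The lower ones were Lcn2 and Ccl2. The best known injury marker, Havcr1, encoding KIM-1, had a mean over the 8 arrays under the limit and was at 5.32 in stimulated and a dim 4.93 in resting MCT cells.

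Growth arrest and p53 target genes had 5 higher and 0 lower of 30. Their median of 0.48 in MCT lay under the 0.85 of mProx, with -0.13 in NMuMG and -0.03 in EpH4. The 5 were Gadd45g at 1.85, Pmaip1 at 1.44, Cdkn2b at 1.38, Gadd45a at 1.32 and Ddit4 at 1.17, and Cdkn1a, encoding the cell cycle inhibitor p21, changed by 0.86 in MCT and 2.00 in mProx. None of 32 mitosis genes reached 2-fold, but 31 of them were below 0, with a median of -0.29 in MCT, -0.09 in mProx, 0.17 in NMuMG and -0.31 in EpH4. Top2a and Mki67, both marks of dividing cells, changed by -0.36 and -0.35. In 11 of the 32 the change in MCT was below that in each other line, against 27.0% of all genes.

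Most changes of MCT were not seen at 2-fold in another line. Of the 349 higher genes, 223 were 2-fold higher in no other line, 91 in 1, 27 in 2 and 8 in all 3. For the 345 lower genes these numbers were 237, 77, 29 and 2. With mProx MCT shared 66 higher genes, 18.9% of those of MCT and 18.9% of those of mProx, and 72 lower ones, 20.9% and 22.9%. With NMuMG it shared 64 higher genes (18.3% and 16.8%) and 56 lower ones (16.2% and 22.2%), and with EpH4 39 (11.2% and 23.4%) and 13 (3.77% and 9.85%). Over the 12640 genes the changes of MCT correlated at r = 0.27 with those of mProx, 0.25 with NMuMG and 0.17 with EpH4. These are correlations across genes of single arrays. Over all tested genes the shares higher were 2.77% in mProx, 3.01% in NMuMG and 1.32% in EpH4, and the shares lower 2.49%, 1.99% and 1.04%.

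A stricter rule took genes at least 2-fold changed in MCT and under 0.50, or 1.41-fold, in each other line. It found 125 genes (0.989% of those tested and 18.0% of the changed genes of MCT), 54 higher and 71 lower. The rule chose them by these changes, so the changes are given as a description. The same rule gave 148 genes in mProx, 144 in NMuMG and 54 in EpH4, or 22.3%, 22.7% and 18.1% of the changed genes of each. Of the 125, 77 had both MCT arrays above the dim limit and 62 had all 8 arrays above it. They had 73 further probe sets, of which 68 changed in the same direction in MCT.

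The genes described next had at least 2 other lines with an array above the dim limit. Of these Pdgfc, a ligand of the PDGF α receptor, stood farthest from the other lines among the higher genes. It was at 10.17 in stimulated and 7.53 in resting MCT cells, at 9.97 and 9.59 in mProx, at 11.18 and 10.92 in NMuMG and at 11.87 and 11.53 in EpH4. Its further probe set was higher in MCT by 2.34. Resting MCT cells thus had the lowest Pdgfc level, and stimulated MCT cells lay within the range of the other lines. St6gal1, a sialyltransferase, was at 9.72 and 8.22 in MCT, with changes of 0.25, -0.46 and -0.05 in mProx, NMuMG and EpH4, and Ece1, which makes active endothelin, was at 10.10 and 8.69, with changes of 0.27, 0.00 and 0.14. Their further probe sets were higher by 0.97 and 0.92. Unlike Pdgfc, stimulated Ece1 was higher in MCT than on any array of the other lines.

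Most of the other named genes of this kind lay near the dim limit. Of the 12 higher genes by distance from the nearest other line, under the same condition on the other lines, 8 were dim in resting MCT cells, and these were Hrk, Grm4, Dcc, Lce1g, Krtap19-1, Zfp111, Foxa3 and Gata4, with changes between 1.27 and 1.65. Pcdhb22, at 6.40 in stimulated and 5.27 in resting cells, was at the limit. Among the genes of tubular or signalling function that met the rule at higher levels were Ier2, Klf6, Plin2, Sox4 and Sox9. Others, such as Tsc22d1 and Nfil3, met it too and are not described. Sox4, a progenitor cell factor, was at 12.50 and 11.35, and its 5 further probe sets were all higher, at 0.63 to 2.15. Left out by the condition on the other lines were Dppa2, a gene of early embryonic cells, at 8.90 in stimulated and 7.26 in resting MCT cells and dim on all arrays of the other lines, and BC034090, higher by 1.46. Both were as far from the other lines as the 12, and 27 higher and 34 lower genes under the limit on the mean, Csf2 among them with the longest distance, met the rule on changes.

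Of the 12 lower genes named, Hacd4, an enzyme of very long chain fatty acid synthesis, Adap1, an ARF GTPase-activating protein, and Tgfb2 were above the dim limit on both MCT arrays. Stimulated Tgfb2, at 5.28, was at the limit. Hacd4 was at 6.95 in stimulated and 9.12 in resting MCT cells, at 9.99 and 9.73 in mProx, at 5.40 and a dim 5.19 in NMuMG and at 8.98 and 9.11 in EpH4. Tgfb2 was at 5.28 and 6.88 in MCT, with changes of 0.15, -0.06 and -0.17 in mProx, NMuMG and EpH4, and its 3 further probe sets changed by -0.88 to -0.45 in MCT. Abcc3, an exporter of organic anions, was at a dim 4.18 in stimulated and at 6.89 in resting MCT cells, against 6.23 and 6.39 in mProx, 9.99 and 10.33 in NMuMG and 4.97 and 5.13 in EpH4. Fmo2, S1pr1, Apom, Rab3a, 1190005I06Rik, Rab40b, F7 and Trem2 were likewise dim in stimulated MCT cells, with changes between -2.29 and -1.41. Sparc, Twist2, Ddx58, Mgst1 and the axon guidance gene Sema3a also met the rule, at higher levels. Sema3a was at 6.60 and 8.01, and its relatives Sema3c and Sema3e were lower in MCT too, at -1.67 and -1.19, with 0.36 and 0.42 in mProx.

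**Figure D5:**
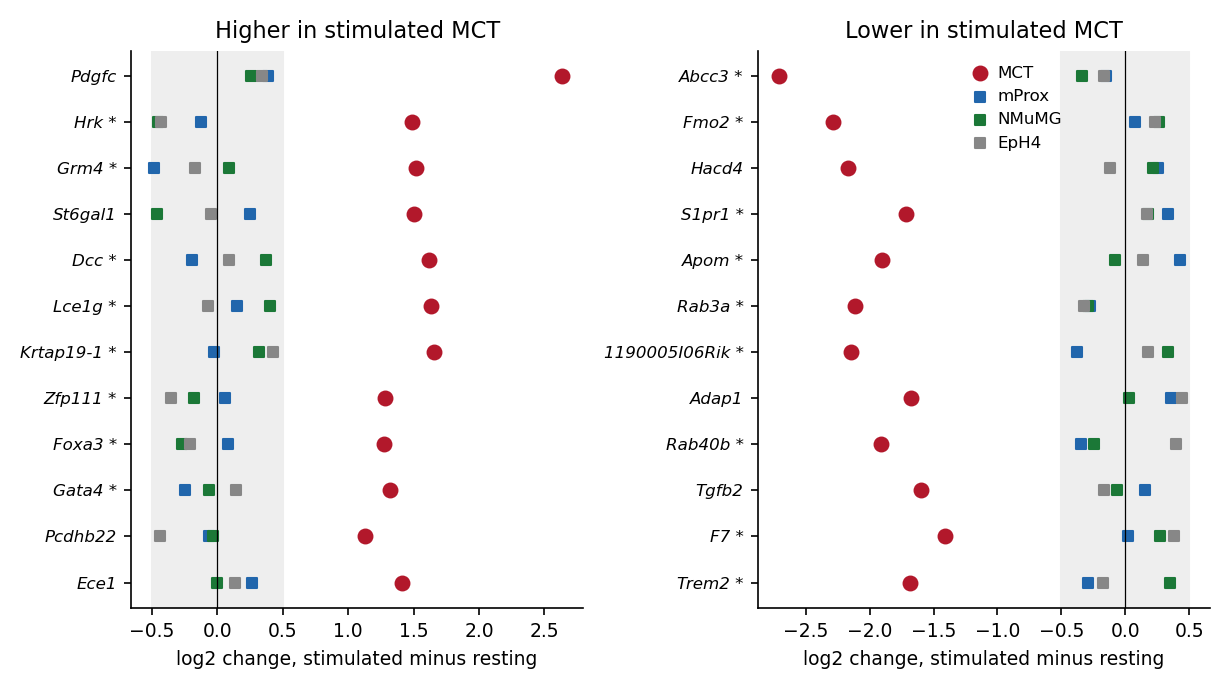
Log2 change (stimulated minus resting) in MCT (red circles), mProx, NMuMG and EpH4 (squares) of the 12 higher and 12 lower genes that lay farthest from the nearest other line, among genes at least 2-fold changed in MCT and within the grey band of 0.50 either side of 0 in each other line, with at least 2 other lines above the dim limit on an array. Asterisks mark genes dim on an MCT array, 8 on the left and 9 on the right, and Pdgfc at 2.64 has no such mark.

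The difference between the MCT response and the mean of the other 3 lines was tested over all 12640 genes with limma, with the line as a block. Here 0 genes (0%) passed an adjusted p of 0.05, while 575 had an unadjusted p under 0.05. The lowest adjusted p in limma was 0.126, for Pdgfc, with a difference of 2.31 and an SE of 0.21. The single MCT change enters with the spread of the others taken as its own, which leaves 2 residual degrees of freedom, so the SE holds no spread of MCT itself and the p does not rank MCT changes. The outcome changed with mProx or NMuMG left out and on the values as deposited. A fit with a line left out has still fewer residual degrees of freedom. No gene is therefore named from these fits.

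Set against mProx alone, the other tubular line, the MCT change differed by at least 2-fold for 1074 genes (8.50%), higher for 494 and lower for 580. All 4 kidney arrays were above the dim limit for 565 of them. These are differences between 4 single arrays and were not tested. In 33 genes both lines changed at least 2-fold in opposite directions, 20 of them higher in MCT. Cdh6 and Il33 were among these. Named after their values were seen, so were Npr3, a natriuretic peptide receptor, at 2.42 in MCT and -3.92 in mProx, the chemokine receptor gene Ackr3 at 2.78 and -1.37, and Tns1, a focal adhesion protein, at 2.18 and -1.21. All 3 and Cdh6 were above the dim limit on the 4 kidney arrays. Jag1, Tnc and Nt5e were higher in MCT alone of the 2 kidney lines, while Ccbe1, Mmp10, Fbln2, Dusp5 and Myc were at least 2-fold higher in both.

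Genes that moved in MCT against at least 2 other lines were few and dim. Of genes at least 2-fold higher in MCT and lower by 0.50 or more in 2 or more other lines there were 14, of which 5 had both MCT arrays above the dim limit, and in the other direction there were 24, of which 3 did. Igsf11, an adhesion protein gene, was at 8.83 in stimulated and 7.31 in resting MCT cells, and changed by -0.59 in mProx, 0.03 in NMuMG and -0.75 in EpH4. It was dim on both EpH4 arrays, so only mProx moved against MCT above the dim limit. Tpbgl was higher by 2.09 in MCT, with -0.82, -1.28 and 0.39, and Cep126, a centrosome gene, by 1.27 with -1.27, -2.30 and -0.61, though its further probe set changed by -0.05 in MCT. Slamf9, an immune receptor gene, changed by -1.63 in MCT, with 0.63, 0.25 and 0.56 in the other lines. C1qtnf6, a secreted protein of the C1q family, was at a dim 5.01 in stimulated and at 7.26 in resting MCT cells, with changes of -0.04, 1.48 and 1.28. The remaining named genes of this kind, 4931406H21Rik, Krt84, Prr18, Padi6, Mm2pr, Il33, Inhbb, H2-T3, 2310040G24Rik, Flt3 and Myt1l, were dim on at least 1 MCT array.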

How the data were processed

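Array values were the deposited intensities of Affymetrix mouse genome arrays, linear signals per probe set that the authors made with MAS5, per the submitters' processing notes. No source used here gives its version or scaling. Of 45101 probe sets, 64 controls were left out. To each intensity 10.6 was added, the 25th percentile of positive values. Log2 values were then quantile normalized over the 8 arrays with limma 3.58.1 in R 4.3.3. The platform table gave 34945 probe sets 1 symbol, 932 several and 9160 none. The probe set with the highest mean stood for each gene. Of 18193 genes, 12640 had a mean at or above the 40th percentile, 5.27.

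One array a side allows no test within MCT. The difference between lines was tested with limma (line as block, intensity trend, Benjamini-Hochberg 0.05), and its script was tested on simulated data. Named genes were the 15 largest changes each way, 12 each way not shared with at least 2 other lines above the limit, 8 each way opposite to other lines, a panel of EMT genes, and up to 8 members of each list with others of their families. The members and lists were chosen with earlier results of these data known. Promoters come from RefSeq, GRCm38.p6. A panel gene is not reported here.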

Additional observations from a re-analysis of the deposited data

Results flagged for a closer look

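With 1 value for each of the 4 lines, 92 sets of 4 were looked at. In 4 of them a single line stood far from the rest, where chance gives about 1 in 20. The 4 are thus no more than chance would give and are only described. The median change of ERK feedback and immediate early genes was 0.66 in MCT and 0.25, 0.25 and 0.18 in mProx, NMuMG and EpH4. The change of Abcc3 was -2.71 in MCT and -0.15, -0.34 and -0.16 in those lines. Abcc3 had been named by the rule on changes not shared, so its distance from the other lines followed from that choice. It was dim in stimulated MCT cells and on both EpH4 arrays. For Ptgds EpH4 was the line apart, at 0.32, against -2.32 in MCT, -2.51 in mProx and -2.10 in NMuMG. The 3' to 5' ratio of the Gapdh control was 0.823 on the resting MCT array, the highest of the 4 resting arrays. Whether it bears on any change was not tested.

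Outside the genes named here, 232 of 3769 bright enough probe sets with no single gene symbol (6.16%) were at least 2-fold changed in MCT, 134 higher and 98 lower. Of these 54 and 34 had both MCT arrays above the dim limit. With 1 array a side they have no replicate check.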

How the results depend on the processing

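The counts rest on the offset and the limit for dim genes. The 349 higher genes of MCT became 228 on the values as deposited, 184 with an offset of 50, 674 with no limit and 203 at the 60th percentile. The 345 lower genes became 602, 144, 653 and 151 in that order. The 125 genes not shared became 69 with an offset of 50, 250 with no limit and 60 at the 60th percentile, and 186 to 230 when 1 other line was left out, 219 without mProx. The 1074 genes that differed between MCT and mProx became 477, 2224 and 469, alternatives chosen after the data were seen. The difference test gave 20 genes on the values as deposited, 0 to 19 with a line left out (2 without NMuMG), and 0 with no replicate block (35 at an unadjusted p under 0.05). Of 328 list medians taken relative to all genes, 292 moved little, 31 moved more and 5 turned. The median of TGF-β/SMAD targets became 1.03 over all probe sets, that of ERK genes 0.63 with an offset of 50, and that of laminins 0.77 at the 60th percentile. Those that turned were the EGF family at 0.014 and BMP and Id genes at -0.017 over all probe sets, mesenchymal markers at -0.0094 with no limit, and at the 60th percentile distal nephron markers at -0.31 and leukocyte markers at 0.27. Of 600 values for named genes 566 kept their side of 2-fold, 29 fell under it, 5 passed it and 0 turned. The cause of these shifts was not tested. One array a side and dim signals limit all sizes.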
